A study of Homo sapiens with 15 samples.

Results

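The genes described here encode the subunits of the 5 oxidative phosphorylation complexes, measured as RNA in K562 cells. They were taken by symbol, with 1 set of name patterns for both tables of the series, and no measured value entered the choice. The patterns matched 96 of 17769 genes in the table of the knockout cells, of which 92 remained once 4 pseudogenes were set aside. These 92 comprised 79 genes of the nucleus and 13 genes of the mitochondrial DNA, or 44 subunits of complex I, 4 of complex II, 10 of complex III, 15 of complex IV (NDUFA4 counted there) and 19 of complex V. In the table of the drug-resistant cells the same patterns matched 191 of 60510 genes, 99 of them without the 92 pseudogenes that this longer table lists.

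K562 is an established BCR-ABL1-positive chronic myeloid leukemia line. The study asked what changes when either cytosolic HSP90 chaperone is lost, and when cells become resistant to PU-H71, an inhibitor of HSP90. EV cells (empty vector, otherwise WT, no treatment), HSP90α-KO cells (HSP90AA1 targeted) and HSP90β-KO cells (HSP90AB1 targeted) carried Cas9 delivered by lentivirus and were sorted on a fluorescent marker. Per the same protocol, which the labels give with every library, these cells were monoclonally selected. PUHr cells (WT, long-term PU-H71) were picked as resistant clones after rising doses, and parental cells (WT, long-term DMSO) were grown beside them in solvent. The study describes an acquired HSP90AA1 mutation and a copy number gain that includes that gene in PUHr cells, although the labels give their genotype as WT. Each of the 5 groups had 3 libraries. Which clone a library came from is not given in the labels, so an effect of the clone and an effect of the knockout or of the drug cannot be told apart. The study calls the replicates independent, but whether they were separate cultures is not given in the sources used here, so p-values measure the spread between these 3 libraries a group only.

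Complexes I to IV pass electrons from NADH and succinate to oxygen and, except for complex II, pump protons across the inner mitochondrial membrane. Complex V, the ATP synthase, uses the returning protons to make ATP. Mitochondrial DNA supplies core subunits of complexes I, III, IV and V and is copied into long RNAs that are cut into shorter messages. Complex II is made from nuclear genes alone. For complexes I, III, IV and V both genomes must therefore be read out, and the nuclear genes are scattered over many chromosomes.

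The libraries held 19594381 to 26216730 reads on genes. HSP90AA1 stood at 92.6, 88.0 and 90.8 CPM (reads scaled to a common library size) in HSP90α-KO against 716, 683 and 713 in EV, a log2 fold change of -2.96. HSP90AB1 stood at 1939, 1909 and 1889 CPM in HSP90β-KO against 2823, 2782 and 2812 in EV, a log2 fold change of -0.55, so most of that RNA was still present. In PUHr HSP90AA1 stood at 1559, 1592 and 1553 CPM against 1721, 1720 and 1696 in parental cells, a log2 fold change of -0.13. Its RNA was thus not higher there despite the described copy number gain, and HSP90AB1 had a log2 fold change of -0.24 in PUHr. The summed erythroid K562 markers (9 of 10 listed genes in the knockout table, none at 0 reads) ranged from 1089 to 1134 CPM in EV, from 905 to 988 in HSP90α-KO and from 1015 to 1031 in HSP90β-KO. Markers of T cells summed to 7.61 to 8.43 CPM in EV, 3.66 to 4.56 in HSP90α-KO, 15.2 to 17.3 in HSP90β-KO, 9.10 to 9.47 in parental and 7.28 to 7.83 in PUHr. Markers of B cells and fibroblasts summed to at most 9.64 CPM in any library, and the monocyte markers to 39.2 to 43.9 CPM in EV, 57.6 to 63.6 in HSP90α-KO, 29.8 to 31.8 in HSP90β-KO, 28.3 to 30.9 in parental and 23.4 to 25.3 in PUHr. The epithelial list summed to 297 to 313 CPM in EV, 376 to 416 in HSP90α-KO and 343 to 349 in HSP90β-KO, and to 474 to 496 in parental and 740 to 765 in PUHr. In the libraries, HSP90α-KO replicate 2 stood apart by its lower share of mitochondrial messages and PUHr replicate 2 by its distance from the other PUHr libraries, and results are given without them where they change. EV replicate 2, used in both knockout comparisons, also lay apart from the other EV libraries. Its chi-square per degree of freedom was 2.65 and 2.07, against 1.39 between EV replicates 1 and 3. The part of these marker differences in the results was not tested, and in bulk RNA fewer cells of a type and less RNA per cell cannot be told apart.

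Levels of different genes are compared per kilobase of the canonical transcript. In EV the 13 mitochondrial genes stood between 2230 and 22477 CPM per kb with a median of 8253. The 79 nuclear genes stood between 0.919 and 736 CPM per kb with a median of 83.8. Some of the 13 overlap: MT-ATP8 shares 22.2% of its bases with MT-ATP6 and MT-ND4L 2.36% with MT-ND4, so their levels are not fully separate. The mitochondrial genes of complex IV ranged from 12415 to 22477 CPM per kb and those of complex I from 2230 to 14744. Among nuclear genes the median over complex IV subunits was 168.5 CPM per kb and that over complex I subunits 61.6. Parental cells had the same order between genomes, with medians of 5010 CPM per kb for the mitochondrial and 101 for the nuclear genes. NDUFA7, the lowest member in EV, shares 77.9% of its exonic bases with another gene on the same strand. Its reads may therefore have been split or dropped. Each length is that of 1 transcript, 11660 bases for NDUFS1, and a long one lowers the level per kb. Whether the cells used these transcripts was not tested.

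Promoters of respiratory genes are known for sites of NRF1, of ETS factors such as GABPA, and of YY1. RefSeq promoter windows (GRCh38.p14, 250 bases before to 50 bases after the start) were matched for 65 of the 79 nuclear members. The 10 letters of the NRF1 palindrome (in capitals in the NDUFB4 and SDHD windows below) were found in 4 of the 65 windows, or 6.15%, against 1.36% of 27305 promoters of all genes. The letters CCGGAAG (ETS), on either strand, were found in 20 windows, or 30.8% against 10.7%, and AAGATGGC (YY1), on either strand, in 11 windows, or 16.9% against 3.03%. At least 1 of the 3 was present in 32 windows, or 49.2% against 14.1%. A match describes letters in a window and does not show that a factor binds there. The windows of members on which the comparisons below turn are printed 5′ to 3′ on the strand of the gene, with the matched letters in capitals (CTTCCGG is the ETS motif read on the opposite strand). In the ATP5MK window a second match on the opposite strand overlaps the one in capitals, starting 3 bases before it.
NDUFB4 (complex I, chr3:120596167-120596196, plus strand): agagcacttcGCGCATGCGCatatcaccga
NDUFA1 (complex I, chrX:119871775-119871801, plus strand): tccgtcgcttCTTCCGGagccgtacgt
NDUFS1 (complex I, chr2:206159585-206159611, minus strand): gctggggccaCTTCCGGcggaactgcg
SDHB (complex II, chr1:17054144-17054170, minus strand): acccgggaaaCCGGAAGccgcctccca
SDHD (complex II, chr11:112086753-112086782, plus strand): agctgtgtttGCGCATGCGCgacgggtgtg
UQCR11 (complex III, chr19:1605563-1605589, minus strand): ccaaccctcgCCGGAAGttactgtaag
COX5B (complex IV, chr2:97646015-97646041, plus strand): aagcccgcccCCGGAAGtccctcctgt
ATP5MK (complex V, chr10:103396619-103396645, minus strand): tgcaattcttCCGGAAGtgtgggcggg
ATP5PF (complex V, chr21:25735094-25735121, minus strand): aggcgaagaaAAGATGGCggaggctgtg

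A log2 fold change below is a difference of mean log2 CPM. A gene is said to have risen or fallen where limma gave an adjusted p (Benjamini-Hochberg over all genes tested) under 0.05. All 92 members passed the filter on low values in the knockout table. For the resistant cells 92 of 99 passed, and the 7 that did not are mostly subunit forms known from muscle, lung or testis: COX4I2, COX6A2, COX8C and ATP5MGL had 0 reads in every library, and COX6B2, COX7A1 and COX7B2 had at most 8 reads in any.

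HSP90α-KO against EV addressed loss of the stress-inducible chaperone. Of the 92 members 16 rose, 35 fell and 41 did not pass, where 54.2% of all genes tested passed, 27.5% higher and 26.6% lower. Changes were small: 77 of 92 members lay within 0.25 of 0 on the log2 scale, beside 8740 of all 17039 genes tested. No member passed 1, whereas 10.3% of all genes tested lay beyond 1 and passed the test. The members lay at higher levels, with a median of mean log2 CPM of 6.53 against 3.79 over all genes. Of the 8089 genes with a mean log2 CPM of 4 to 10, 5454 lay within 0.25 and 222 passed the test beyond 1. The nuclear members had a median log2 fold change of -0.06 (15 rose, 27 fell, n = 79) and the mitochondrial members of -0.16 (1 rose, 8 fell, n = 13), beside -0.01 over all genes. Other scalings changed the counts of the members and of all genes. With library sizes taken from nuclear genes only, 7 members rose and 57 fell beside 21.7% higher and 33.8% lower over all genes, and with sizes from all reads 8 rose and 49 fell beside 23.8% and 30.7%. With quantile normalization 8 rose and 41 fell beside 25.2% and 27.7%. The libraries of both groups did not overlap for 48 of the 92 members, where this held for 57.3% of all genes tested.

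NDUFA1, the member with the largest fall when pseudogenes are left out, belongs to complex I. Of the complex's 37 nuclear subunits 5 rose and 15 fell, with a median of -0.08, and their summed level differed from EV by -6.80%. With library sizes from nuclear genes 3 of them rose and 24 fell (median -0.15). With all reads the counts were 3 and 21 (-0.13), and with quantile normalization 3 and 17 (-0.12). NDUFA1, a small membrane subunit encoded on the X chromosome (GRCh38 chrX:119871832-119876662, GENCODE 44), stood at 48.5, 54.5 and 54.7 CPM in HSP90α-KO and at 99.1, 101.2 and 104.5 CPM in EV. The groups were far apart, and NDUFA1 fell by 0.95 on the log2 scale (SE 0.043, limma adjusted p = 2.22e-16). The 20 tested genes on either side of it along the chromosome had a median log2 fold change of -0.69, so its neighbours were lower as well. The part of the neighbourhood in the change was not tested.

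NDUFB4, an accessory subunit of the membrane arm, stood at 69.4, 69.8 and 70.4 CPM in HSP90α-KO and at 90.6, 88.3 and 92.7 in EV. It fell by 0.37 (SE 0.036, limma adjusted p = 1.35e-09), and its neighbours had a median of -0.18. NDUFA11, which helps hold the membrane arm together, stood at 12.3, 13.1 and 11.2 CPM against 15.1, 16.4 and 15.8, again without overlap. It fell by 0.37 (limma adjusted p = 5.61e-05), with neighbours at 0.02. NDUFA13 and NDUFV2 fell by 0.41 and 0.37 from levels of only 2.44 to 6.03 CPM per library, and the NDUFV2 libraries overlapped.

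In the same complex NDUFS4, an accessory subunit of the matrix arm, stood at 43.5, 44.8 and 42.5 CPM in HSP90α-KO and at 35.8, 34.9 and 32.6 in EV. The groups did not overlap and it rose by 0.34 (SE 0.048, limma adjusted p = 1.19e-06), with neighbours at -0.07. NDUFB8 rose by 0.39 and NDUFC2 by 0.19. The neighbours of NDUFB8 had a median of 0.54, which is larger than its own change. Of the catalytic core, NDUFS1, which holds iron-sulfur clusters, rose by 0.11 (limma adjusted p = 0.00934), a call that was lost under quantile normalization and both other library sizes (0.0949 to 0.271). NDUFV1, which binds NADH, had a log2 fold change of -0.05 and did not pass.

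Complex II, succinate dehydrogenase, was the complex with no fall. All 4 subunits had a fold change above 0, and their sum was 11.9% above EV. SDHB, the iron-sulfur subunit (chr1:17018664-17054032), stood at 126.6, 130.0 and 130.3 CPM in HSP90α-KO and at 105.4, 110.0 and 112.3 CPM in EV. The groups did not overlap and SDHB rose by 0.24 (SE 0.035, limma adjusted p = 1.82e-06), while its neighbours had a median of -0.24. SDHD, a membrane anchor, rose by 0.12 with overlapping libraries. SDHA, the subunit that oxidizes succinate, and SDHC had fold changes of 0.10 and 0.05 that did not pass. With library sizes from nuclear genes only, 1 of the 4 subunits stood below 0 and only 1 still rose.

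In complex III UQCRC1, a core subunit, and UQCRFS1, the Rieske iron-sulfur protein, rose by 0.13 and 0.14 on the log2 scale. The call of UQCRC1 was lost under quantile normalization and under both other library sizes (limma adjusted p from 0.0535 to 0.161), and that of UQCRFS1 with library sizes from nuclear genes (0.0676). CYC1, the cytochrome c1 subunit, stood at 154.2, 139.3 and 147.9 CPM against 152.9, 167.3 and 152.9 in EV, which overlap. It fell by 0.10 (limma adjusted p = 0.0384).

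In complex IV 5 of 12 nuclear subunits fell and 1 rose. With quantile normalization, and also with library sizes from nuclear genes, 8 fell and 0 rose. With all reads 7 fell and 0 rose, and without HSP90α-KO replicate 2 these counts were 7 and 1. COX5B stood at 131.6, 131.9 and 124.9 CPM against 145.7, 157.5 and 151.9 in EV and fell by 0.23 (limma adjusted p = 6.37e-06). COX4I1, which joins the mitochondrially encoded core early in assembly, had a log2 fold change of 0.00 and did not pass. COX5A fell by 0.09.

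Complex V moved in both directions, with 5 of 17 nuclear subunits higher and 6 lower. This balance depended on the scaling: 2 were higher and 9 lower with quantile normalization. With library sizes from nuclear genes these counts were 2 and 12, and with all reads 2 and 11. Leaving out HSP90α-KO replicate 2 gave 3 higher and 6 lower. ATP5MK, a small subunit near the dimer interface (chr10:103389041-103396492), stood at 82.9, 87.1 and 86.6 CPM in HSP90α-KO and at 57.4, 57.3 and 60.2 CPM in EV. It had the largest rise of all members, 0.55 (SE 0.039, limma adjusted p = 3.12e-12), and its neighbours had a median of 0.66. ATP5PF, a subunit of the peripheral stalk, stood at 69.3, 72.7 and 76.0 CPM against 93.8, 85.1 and 92.1 and fell by 0.31 (limma adjusted p = 5.17e-07), with neighbours at -0.08. In the catalytic head ATP5F1A rose by 0.18 (561.3, 576.1 and 576.7 CPM against 514.7, 502.5 and 499.7), whereas ATP5F1B had a log2 fold change below 0.01 in size and did not pass.

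Of the mitochondrially encoded members in HSP90α-KO, MT-CO1, the catalytic subunit of cytochrome c oxidase, fell the most. It stood at 15947, 14606 and 15770 CPM against 19262, 18762 and 19407 in EV, without overlap, and fell by 0.31 (SE 0.031, limma adjusted p = 3.57e-09). MT-ATP8 and MT-ND4L each fell by 0.25, MT-CO2 and MT-ATP6 by 0.18, MT-ND4 by 0.17, MT-ND1 by 0.16 and MT-CYB by 0.11. MT-CO3, MT-ND2, MT-ND3 and MT-ND5 had log2 fold changes from -0.04 to 0.06 and did not pass. MT-ND6, known as the message read from the opposite strand of the mitochondrial DNA, was the exception: it stood at 1307, 1232 and 1339 CPM against 1173, 1159 and 1180 and rose by 0.14 (limma adjusted p = 1.49e-04), and under quantile normalization it was lower instead (-0.07). Quantile normalization gives a value to each rank, so a gene that keeps its rank in every library has a difference of exactly 0, as MT-CO2, MT-CYB, MT-ND2 and MT-ND4 had here. For these genes that setting reads ranks and not levels. The libraries were made from captured mRNA, and the part of capture in the level of MT-ND6 was not tested in any comparison.

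Summed over the 13 genes, mitochondrial messages took 11.7% ± 0.268 (SD, n = 3) of the reads in EV and 10.3% ± 0.582 in HSP90α-KO. HSP90α-KO replicate 2 was the lowest with 9.62%. Without that library 2 mitochondrial members rose, 7 fell and 5 of 13 stood above 0, with a median of -0.10, beside 24.7% higher and 24.9% lower over all genes. The mitochondrial ribosomal RNAs, which are not members, did not move as the messages did: MT-RNR1 stood at 2458, 2404 and 2511 CPM against 1526, 1489 and 1552 in EV, a rise of 0.69 (limma adjusted p = 2.46e-17), and MT-RNR2 fell by 0.09.

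Calls with small margins rested on single libraries. Without EV replicate 2 the falls of COX5A, CYC1, NDUFA13 and NDUFV2 and the rise of NDUFS1 were no longer called (limma adjusted p from 0.058 to 0.272). Without HSP90α-KO replicate 2 those of CYC1, NDUFA13, NDUFV2 and MT-CYB were lost (0.0602 to 0.265), without HSP90α-KO replicate 1 that of COX5A (0.066), without EV replicate 3 that of MT-CYB (0.0685) and without EV replicate 1 that of NDUFV2 (0.0662). The NDUFV2 call was also lost when any HSP90β-KO library left the shared fit (0.0516 to 0.0545), with only the 6 libraries compared, with voom and with quantile normalization (0.0531 to 0.067), and that of CYC1 with the 6 libraries (0.0575). Without an intensity trend COX5A, CYC1, NDUFS1, NDUFV2, MT-CYB and MT-ND4 were not called (limma adjusted p from 0.0516 to 0.183), with robust variance MT-CYB (0.074) and with quantile normalization MT-ND1 (0.0766) and MT-CO2, MT-CYB and MT-ND4, which it sets to 0. Exons of NDUFV2, NDUFA13, NDUFA7, NDUFB8, SDHA, NDUFA11 and ATP5PO share from 63.8% to 90.0% of their bases with another annotated gene on the same strand (GENCODE 44), so reads of these 7 members may have been split or dropped and their values are uncertain. Further members overlap on the opposite strand, among them NDUFS7 over 51.3%, ATP5ME over 39.6% and NDUFB9 over 23.9% of their bases. Whether the counting kept the strands apart is not given in the sources used here.

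**Figure D1:**
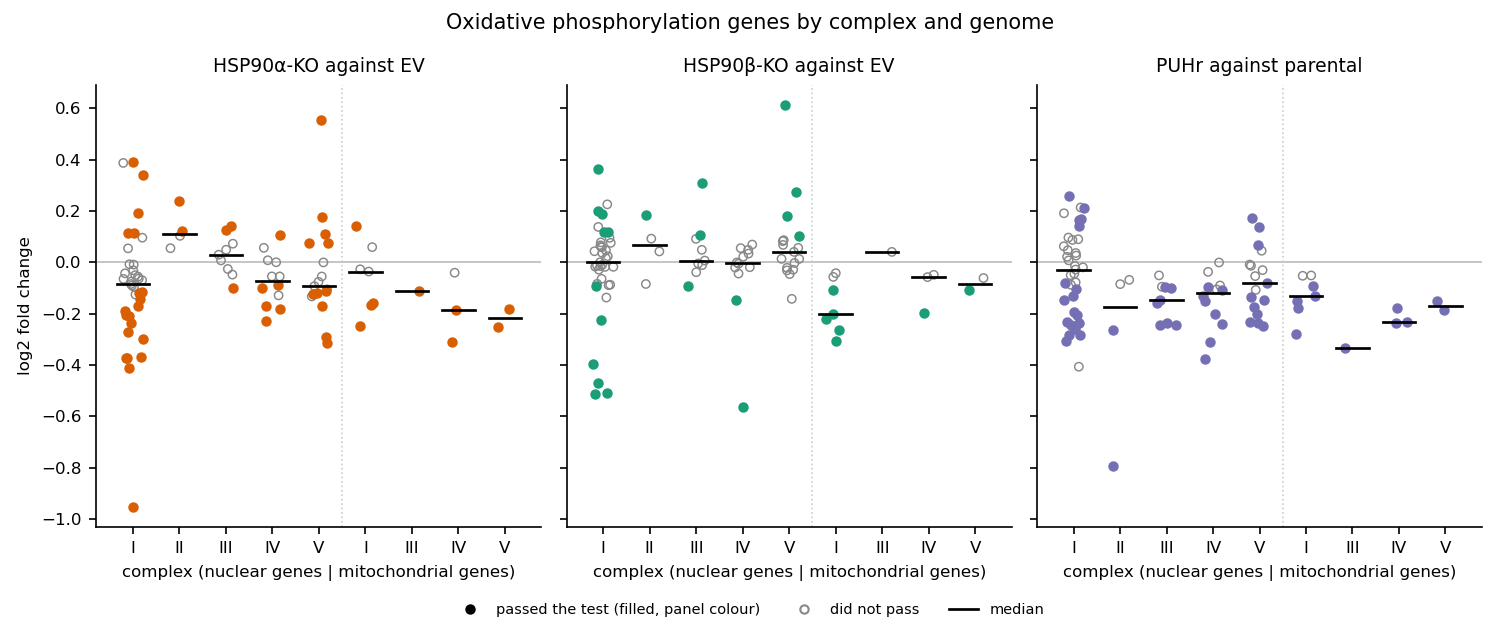
Log2 fold change (vertical axis) of each member, grouped by complex on the horizontal axis with nuclear genes left and mitochondrial genes right of the dotted line, for HSP90α-KO and HSP90β-KO against EV and PUHr against parental. Filled points passed the limma test, open points did not and bars are medians; in PUHr all 9 nuclear members of complex III and all 12 of complex IV lie at or below 0 and SDHB lies at -0.79, while with other library sizes up to 2 of the 12 and 1 of the 9 lie above 0.

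HSP90β-KO against EV addressed loss of the constitutive chaperone, with the same 3 EV libraries as the comparison above. Of the 92 members 12 rose, 16 fell and 64 did not pass, where 34.4% of all genes tested passed, 17.2% higher and 17.2% lower. The libraries did not overlap for 40 members, where this held for 46.6% of all genes tested. No member passed a log2 fold change of 1, whereas 4.48% of all genes tested passed the test beyond 1. Within 0.25 of 0 lay 81 of 92 members and 11199 of all 17039 genes tested. Of the 8089 genes with a mean log2 CPM of 4 to 10, 6818 lay within 0.25 and 43 passed the test beyond 1. The nuclear members had a median of 0.01 (12 rose, 9 fell), which became -0.03 under median centring, where the median over all genes became -0.04. The mitochondrial members had a median of -0.11 (0 rose, 7 fell), and under quantile normalization, which reads only ranks, of 0.00 with 3 higher and 3 lower. With library sizes from all reads 18 members rose and 13 fell beside 21.0% higher and 15.1% lower over all genes. With quantile normalization 17 rose and 10 fell beside 17.3% and 16.2%, and with median centring 7 rose and 21 fell beside 12.5% and 21.6%.

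Of the 6 largest falls in HSP90β-KO, pseudogenes left out, 4 came from genes on chromosome 2 and the others were NDUFA13 and MT-ND6. COX5B, a zinc-binding subunit of complex IV (chr2:97646062-97648383), stood at 102.1, 100.4 and 105.0 CPM in HSP90β-KO and at 145.7, 157.5 and 151.9 CPM in EV. The groups did not overlap and COX5B fell by 0.56 (SE 0.036, limma adjusted p = 1.38e-12), with a neighbour median of -0.52. NDUFS1 stood at 103.9, 102.8 and 108.3 CPM against 153.9, 143.7 and 150.5 and fell by 0.51 (limma adjusted p = 9.12e-12), with neighbours at -0.65. NDUFB3 and NDUFA10, accessory subunits of complex I, fell by 0.47 and 0.40 with neighbours at -0.61 and -0.52. The neighbours of all 4 genes had medians from -0.65 to -0.52, and NDUFS1, NDUFB3 and NDUFA10 stood 0.12 to 0.14 above their neighbours. Elsewhere on chromosome 2 COX7A2L fell by 0.15 and ATP5MC3 rose by 0.10 with neighbours at 0.06 and -0.02.

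The largest rise belonged to ATP5MJ, a small membrane subunit of complex V on chromosome 14. It stood at 101.4, 99.5 and 97.0 CPM in HSP90β-KO and at 67.3, 62.9 and 64.3 CPM in EV. The groups did not overlap and ATP5MJ rose by 0.61 (SE 0.041, limma adjusted p = 3.76e-12), and its neighbours had a median of 0.64. ATP5MC1, which encodes the proton-carrying ring subunit, rose by 0.27 (100.6, 98.5 and 94.9 CPM against 80.7, 82.4 and 79.9) with neighbours at 0.05. In complex V 4 of 17 nuclear subunits rose and 0 fell, and the sum was 4.04% above EV.

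Away from chromosome 2, 5 nuclear subunits of complex I rose and 3 fell. NDUFA11 stood at 20.1, 20.1 and 20.7 CPM against 15.1, 16.4 and 15.8 and rose by 0.36 (limma adjusted p = 1.45e-04), NDUFB4 rose by 0.20 and NDUFA12 by 0.19, with neighbour medians of at most 0.03. NDUFA13 fell by 0.51 from a low level (3.53, 2.99 and 3.92 CPM against 4.47, 6.03 and 4.57). UQCR11, a small subunit of complex III, rose by 0.31 (16.9, 19.1 and 18.0 CPM against 13.2, 15.9 and 14.5). SDHA rose by 0.19 (limma adjusted p = 0.0426). NDUFV1, SDHB, UQCRC1, UQCRFS1, CYC1, COX4I1, COX5A, ATP5F1A and ATP5F1B had log2 fold changes from -0.08 to 0.05 and did not pass.

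Among mitochondrial genes in HSP90β-KO the falls lay mainly in complex I. MT-ND6 stood at 937, 959 and 943 CPM against 1173, 1159 and 1180 in EV and fell by 0.31 (SE 0.029, limma adjusted p = 1.98e-09). MT-ND2 fell by 0.26, MT-ND5 by 0.22, MT-ND1 by 0.20, MT-ND3 by 0.11, MT-CO1 by 0.20 and MT-ATP6 by 0.11. MT-CYB, MT-CO2, MT-CO3, MT-ATP8, MT-ND4 and MT-ND4L had log2 fold changes from -0.06 to 0.04 and did not pass. The 13 genes together took 11.1% ± 0.109 (SD, n = 3) of the reads, and both ribosomal RNAs were lower (MT-RNR1 by 0.32, MT-RNR2 by 0.23 on the log2 scale).

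Single libraries decided several of these calls as well. The fall of MT-ATP6 was lost without EV replicate 1 or 3 or HSP90β-KO replicate 1 or 3 (limma adjusted p from 0.0752 to 0.122), and also with library sizes from all reads, a pseudocount of 5 CPM, robust variance or no intensity trend (0.0628 to 0.205) and with quantile normalization, where its difference was 0. That of MT-ND3 was lost without EV replicate 3 (0.072), without an intensity trend (0.115) and with quantile normalization (0.802), which also removed the calls of MT-ND1 (set to 0) and MT-ND5 (0.141). The rise of SDHA was lost without any EV library or without HSP90β-KO replicate 1 or 3 (0.0696 to 0.181), and with median centring, quantile normalization, no intensity trend or a pseudocount of 5 CPM (0.0543 to 0.123). The fall of NDUFA13 was lost without EV replicate 2 (0.0565).

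**Figure D2:**
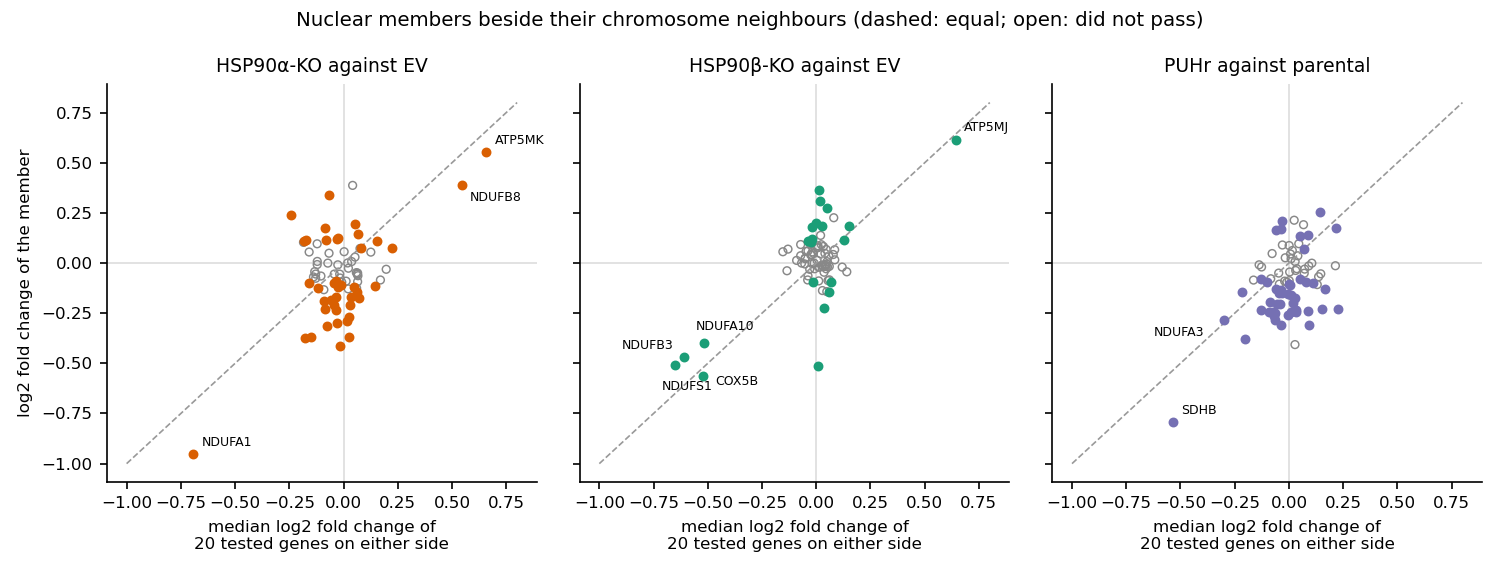
Log2 fold change of each nuclear member (vertical axis) against the median log2 fold change of the 20 tested genes on either side of it on its chromosome (horizontal axis), in 3 comparisons; filled points passed the limma test and the dashed line marks equal values. NDUFA1, ATP5MK and NDUFB8 in HSP90α-KO, 4 genes of chromosome 2 and ATP5MJ in HSP90β-KO, and SDHB and NDUFA3 in PUHr lie where the neighbours moved by more than 0.25.

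Read beside their neighbours, most nuclear members lay in quiet stretches: the neighbour median passed 0.25 in size for 3 of 79 nuclear members in HSP90α-KO and 5 in HSP90β-KO. The members with the largest change in each knockout were among these few. Without them, 13 of 76 nuclear members rose and 26 fell in HSP90α-KO, and 11 of 74 rose and 5 fell in HSP90β-KO. The shares over all genes tested were 27.5% higher and 26.6% lower in HSP90α-KO and 17.2% and 17.2% in HSP90β-KO.

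The knockouts were also set against each other, again over the same libraries. Of the 92 members 20 were higher and 37 lower in HSP90α-KO than in HSP90β-KO, where 59.9% of all genes tested passed (30.1% higher, 29.8% lower). The other 35 did not pass, and 55 members did not overlap (63.8% of all genes tested). With library sizes from nuclear genes 15 members stood higher and 56 lower beside 24.3% and 37.3% of all genes, and median centring gave 24 higher and 27 lower beside 33.7% and 26.0%. NDUFA1, at -1.01 (SE 0.043, limma adjusted p = 3.48e-17), was the only member past a log2 fold change of 1. Of all genes tested 12.7% passed the test beyond that size. The same held for 298 of the 8089 genes with a mean log2 CPM of 4 to 10. NDUFA1 stood at 107.8, 104.8 and 105.3 CPM in HSP90β-KO, close to its EV level, and its neighbours had a median of -0.62.

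NDUFA11, NDUFB4, NDUFB10 and ATP5MJ had each fallen in HSP90α-KO and risen in HSP90β-KO against EV. NDUFA11 was lower in HSP90α-KO than in HSP90β-KO by 0.73 on the log2 scale (limma adjusted p = 6.64e-10) and NDUFB4 by 0.57 (1.61e-13), with neighbour medians of 0.03 and -0.10. NDUFB4 averaged 69.9, 90.5 and 104 CPM in HSP90α-KO, EV and HSP90β-KO, and no library of a group overlapped another group. ATP5MJ was lower by 0.74, ATP5MC1 by 0.33 and NDUFB10, an accessory subunit of complex I, by 0.33. Higher in HSP90α-KO were NDUFS1 by 0.62, NDUFS4 by 0.43, NDUFB3 by 0.38, ATP5MK by 0.37 and COX5B by 0.34. SDHB was higher by 0.32 (limma adjusted p = 8.52e-09) with neighbours at -0.05.

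The mitochondrial members split between the knockouts by gene rather than together: 4 were higher in HSP90α-KO, 6 were lower and 3 did not pass, with a median of -0.07. MT-ND6 was higher by 0.45 (limma adjusted p = 2.63e-13), MT-ND5 by 0.28, MT-ND2 by 0.23 and MT-ND3 by 0.08, though MT-ND3 did not pass with library sizes from all reads or nuclear genes (limma adjusted p = 0.679 and 0.887). MT-ND4L was lower by 0.21, MT-ATP8 by 0.19, MT-CYB by 0.15, MT-CO2 by 0.14, and MT-CO1 and MT-ND4 by 0.11 each, and under median centring the calls of MT-CO1, MT-CO2 and MT-ND4 were lost (limma adjusted p = 0.0776, 0.0528 and 0.163). Without an intensity trend the calls of MT-CO1, MT-CO2, MT-ND3 and MT-ND4 were lost too (0.0542 to 0.161), with robust variance those of MT-CO2 and MT-ND4 (0.0948 and 0.148), with a pseudocount of 5 CPM that of MT-ND4 (0.0636) and with quantile normalization that of MT-CO1 (0.14) and those of MT-ND4 and MT-ND5, which it sets to 0. Under quantile normalization MT-ND3 was lower instead (-0.14). Without HSP90α-KO replicate 2 the median was -0.01, 6 were higher and 5 lower, beside 27.4% and 28.5% of all genes. The call of MT-ND3 was lost without HSP90α-KO replicate 3 or HSP90β-KO replicate 1 or 3 (limma adjusted p from 0.0859 to 0.108), and that of MT-ND4 without HSP90α-KO replicate 2 or HSP90β-KO replicate 1 or 2 (0.0598 to 0.183).

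**Figure D3:**
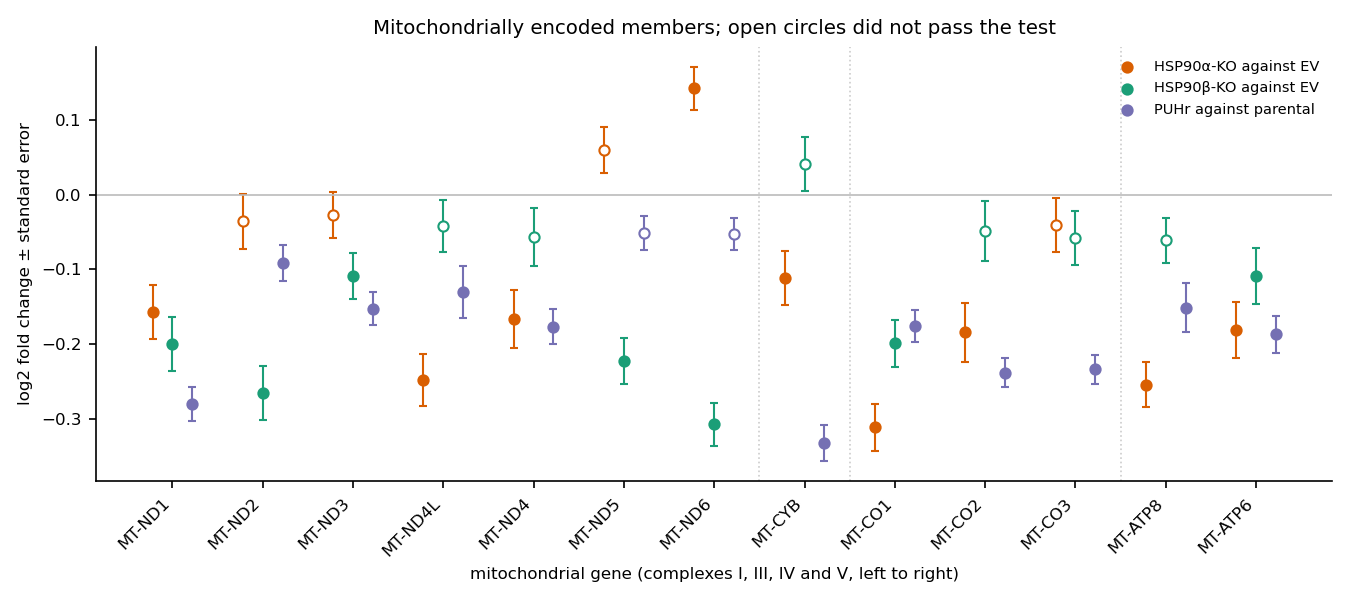
Log2 fold change ± standard error (vertical axis) of the 13 mitochondrially encoded members (horizontal axis, ordered by complex) in HSP90α-KO and HSP90β-KO against EV and in PUHr against parental; filled circles passed the limma test. MT-ND6 is at 0.14 in HSP90α-KO and at -0.31 in HSP90β-KO, and all 13 genes lie below 0 in PUHr as deposited, though 5 lie above 0 with quantile normalization.

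PUHr against parental addressed resistance to PU-H71 and came from the separately normalized table. Of the 92 members tested 8 rose, 49 fell and 35 did not pass, where 51.4% of all genes tested passed, 25.6% higher and 25.8% lower. No member passed a log2 fold change of 1, whereas 10.1% of all genes tested passed the test beyond 1. Within 0.25 of 0 lay 80 of 92 members and 9333 of all 16503 genes tested. Of the 8096 genes with a mean log2 CPM of 4 to 10, 6011 lay within 0.25 and 174 passed the test beyond 1. The nuclear members had a median of -0.10 (8 rose, 38 fell, n = 79) and the mitochondrial members of -0.18 (0 rose, 11 fell, n = 13), beside 0.00 over all genes. With library sizes from nuclear genes 13 members rose and 39 fell beside 31.2% higher and 21.0% lower over all genes, and with all reads 13 rose and 38 fell beside 32.4% and 19.9%. With quantile normalization 12 rose and 37 fell beside 24.6% and 26.0%, with a mitochondrial median of 0.00. Median centring gave 5 higher and 59 lower beside 21.3% and 31.5%, and without an intensity trend 4 rose and 37 fell beside 3695 higher and 3632 lower of the 16503 genes tested. Without parental replicate 2 or 3, 5 members rose, beside 23.7% and 22.9% of all genes. The libraries did not overlap for 60 of the 92 members, where this held for 58.5% of all genes tested.

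Complex II held the largest change in PUHr. SDHB stood at 75.7, 79.1 and 77.9 CPM in PUHr and at 133.5, 136.5 and 133.5 CPM in parental cells. The groups were far apart and SDHB fell by 0.79 (SE 0.030, limma adjusted p = 2.01e-11), and its neighbours had a median of -0.53. SDHD stood at 71.2, 68.0 and 69.4 CPM against 84.5, 82.0 and 84.2 and fell by 0.27 (limma adjusted p = 8.11e-06), with neighbours at -0.07. SDHA and SDHC had log2 fold changes of -0.07 and -0.08 and did not pass, and the sum of the 4 genes differed from parental by -24.3%.

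In complex III 7 of 9 nuclear subunits fell and all 9 stood below 0, with a median of -0.15 (with library sizes from all reads, 1 stood above 0). UQCRC1 stood at 134.6, 127.9 and 126.9 CPM in PUHr and at 157.1, 151.9 and 151.7 in parental cells, without overlap, and fell by 0.24 (SE 0.030, limma adjusted p = 9.24e-06). UQCRFS1 fell by 0.23, and UQCRQ, a small subunit, by 0.25. CYC1 fell by 0.10 (limma adjusted p = 0.0124), a call that was lost without parental replicate 1 (0.0802), under quantile normalization and with both other library sizes (0.147 to 0.265). The mitochondrial member of this complex, MT-CYB, encodes cytochrome b. It stood at 3878, 3943 and 3711 CPM against 4924, 4887 and 4703 and fell by 0.33 (SE 0.024, limma adjusted p = 2.99e-08), the largest change of a mitochondrial message in this comparison.

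In complex IV 8 of 12 nuclear subunits fell, and 12 of 12 had a fold change of 0 or lower, with a median of -0.12 (2 stood above 0 with library sizes from nuclear genes). COX7B, a small subunit on the X chromosome, stood at 211.4, 221.3 and 195.4 CPM in PUHr and at 270.2, 268.7 and 275.8 in parental cells. The groups did not overlap and COX7B fell by 0.38 (SE 0.037, limma adjusted p = 6.49e-07), with neighbours at -0.20. COX7A2L, known to link complexes III and IV, fell by 0.31 (81.8, 81.7 and 78.1 CPM against 100.5, 97.5 and 101.3), with neighbours at 0.09. COX4I1 fell by 0.24, with 397, 368 and 385 CPM against 453, 454 and 453. COX5A had a log2 fold change of 0.00 and did not pass. The mitochondrial core of the complex was lower too, MT-CO2 by 0.24, MT-CO3 by 0.23 and MT-CO1 by 0.18.

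Complex I was mixed: 5 of 37 nuclear subunits rose and 13 fell, with a median of -0.03. NDUFB10 stood at 82.1, 90.6 and 79.9 CPM in PUHr and at 101.9, 107.9 and 102.2 in parental cells and fell by 0.31 (SE 0.043, limma adjusted p = 3.14e-05), with neighbours at -0.04. NDUFA3 fell by 0.28 with neighbours at -0.30. NDUFV1 fell by 0.20 (273, 269 and 278 CPM against 313.5, 318.5 and 313.2) and NDUFS1 by 0.08, a call that was lost under the same 3 scalings (limma adjusted p from 0.149 to 0.453). NDUFB9 was the largest rise of the set, at 193.8, 190.6 and 185.7 CPM against 155.6, 164.7 and 157.0, without overlap. It rose by 0.26 (SE 0.029, limma adjusted p = 3.66e-06) with neighbours at 0.14. NDUFA11 rose by 0.21, NDUFB6 by 0.17, NDUFB4 by 0.16 and NDUFS4 by 0.14. The NDUFS4 call was lost without parental replicate 2 or 3 (limma adjusted p = 0.057 and 0.0627), with median centring (0.0726) and without an intensity trend (0.0534). Without that trend CYC1 and NDUFS1 were not called either (0.101 and 0.088).

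Of the mitochondrial genes of complex I in PUHr, MT-ND1 fell by 0.28, MT-ND4 by 0.18, MT-ND3 by 0.15, MT-ND4L by 0.13 and MT-ND2 by 0.09, although under quantile normalization MT-ND2, MT-ND3 and MT-ND4L stood above 0 instead. The call of MT-ND2 was also lost with library sizes from nuclear genes and from all reads (limma adjusted p = 0.109 and 0.208), and that of MT-ND4L with all reads and with robust variance (0.0754 and 0.0999). Without an intensity trend MT-ND2 and MT-ND4L were not called (0.12 and 0.115), and with quantile normalization neither were MT-ND1 (0.272) nor MT-ND4, MT-CO2 and MT-CO3, which it sets to 0. MT-ND5 and MT-ND6 had log2 fold changes of -0.05 and did not pass.

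In complex V 3 of 17 nuclear subunits rose and 8 fell. ATP5MC3, a further gene for the ring subunit, stood at 373, 354 and 364 CPM in PUHr against 432, 433 and 429 and fell by 0.25 (SE 0.024, limma adjusted p = 5.46e-07). ATP5MC1 fell by 0.23, while ATP5MC2, the other gene for the same ring subunit, rose by 0.07. ATP5F1B, the catalytic subunit, fell by 0.13 (1376, 1423 and 1331 CPM against 1525, 1502 and 1502), although it was higher under quantile normalization (0.08). ATP5F1A had a log2 fold change of -0.05 and did not pass. ATP5ME rose by 0.17 (limma adjusted p = 0.0225), a call that was lost without PUHr replicate 1 or any parental library (0.0524 to 0.118), with median centring (0.0746) and without an intensity trend (0.0893). MT-ATP6 fell by 0.19 and MT-ATP8 by 0.15, the latter not called without an intensity trend (limma adjusted p = 0.0636).

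**Figure D4:**
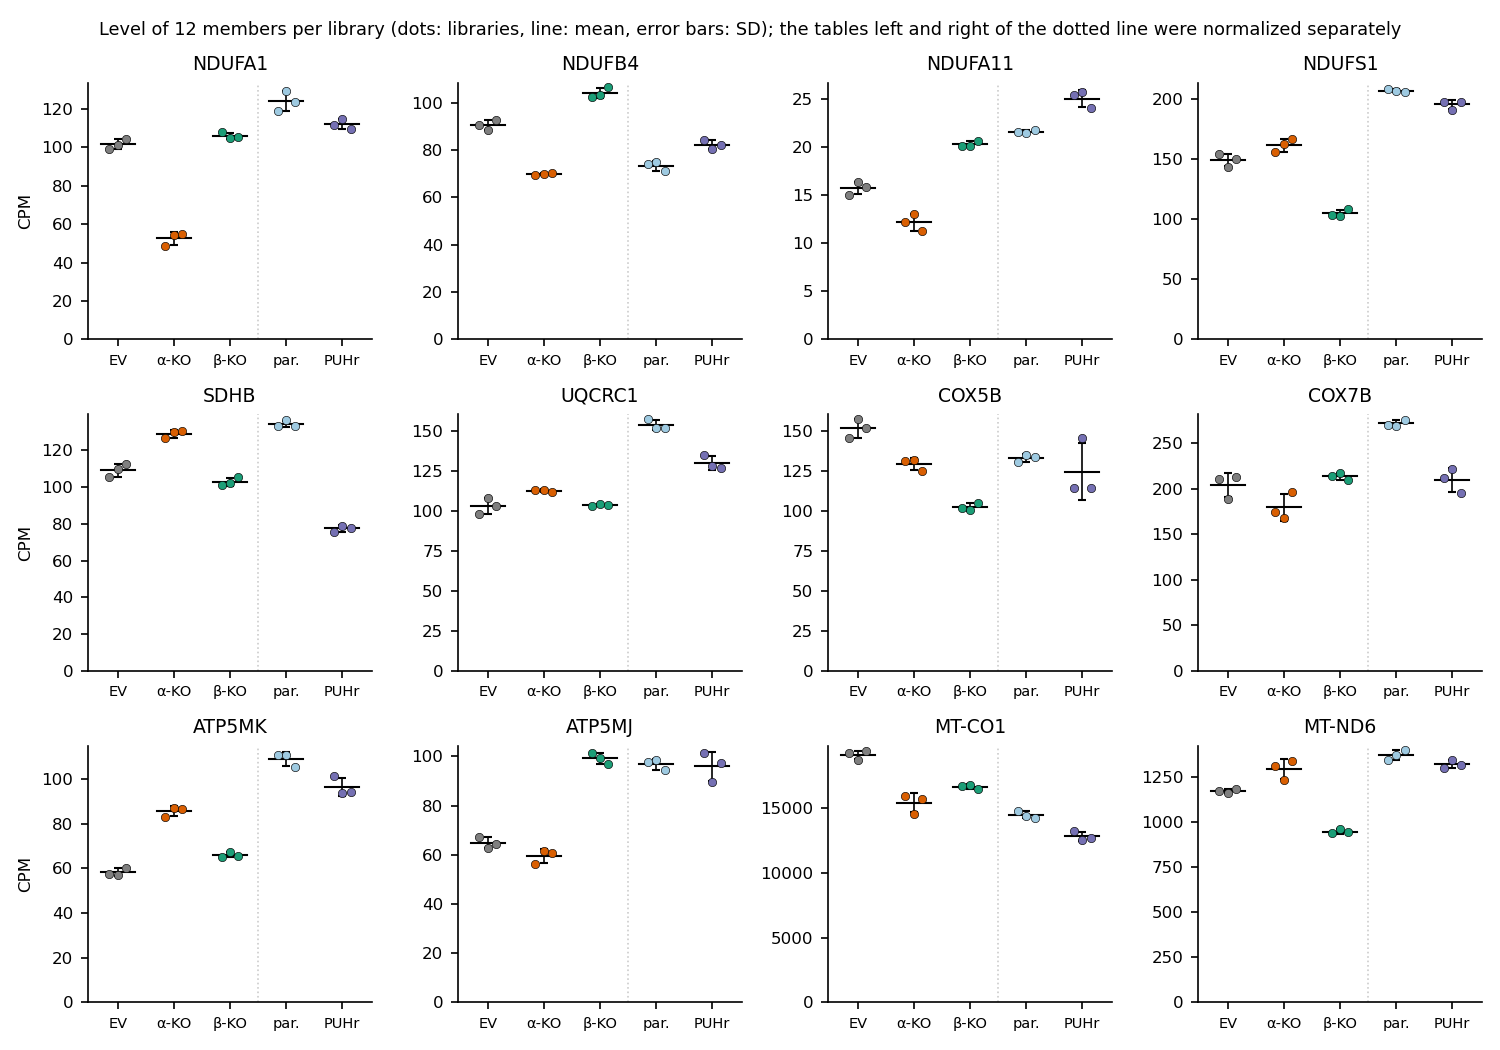
CPM (vertical axes, from 0) of 12 members in every library of the 5 groups, with dots for libraries, lines for means and error bars for SD (n = 3); the 3 knockout-table groups and the 2 resistance-table groups were normalized separately. NDUFA1 is lowest in HSP90α-KO (48.5 to 54.7 CPM), COX5B and NDUFS1 are lower in HSP90β-KO than in EV, and SDHB is lowest in PUHr (75.7 to 79.1 CPM).

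In PUHr only 2 of 79 nuclear members, SDHB and NDUFA3, lay where neighbours passed 0.25 in size. Without them 8 of 77 nuclear members rose and 36 fell, beside 25.6% higher and 25.8% lower over all genes tested. The limit of 0.25 misses the stretch around HSP90AA1. There the study describes a copy number gain in PUHr, and the neighbours of HSP90AA1 had a median of 0.20. PUHr replicate 2 differed from the other PUHr libraries by more than they did from each other (chi-square per degree of freedom 3.16 and 4.14 against 1.55). Without it 9 members rose and 56 fell beside 3859 higher and 4398 lower of the 16101 genes tested (4221 and 4259 of 16503 with every library), and all 13 mitochondrial members fell.

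The balance between genomes was read from the summed CPM of mitochondrial over nuclear members in each library. It was 12.8, 12.3 and 13.03 in EV, 12.3, 10.7 and 12.1 in HSP90α-KO, and 11.7, 11.9 and 11.7 in HSP90β-KO. Every knockout library lay below every EV library, though HSP90α-KO replicate 1 and EV replicate 2 were nearly equal and HSP90α-KO replicate 2 was the lowest. The log2 ratio of HSP90α-KO to EV was -0.12, and without that library -0.06. The ratio was 6.87, 6.82 and 6.79 in parental cells and 6.58, 6.54 and 6.44 in PUHr, again without overlap. When the median over genes replaced the sum, HSP90α-KO no longer stood below EV (a difference of 0.01 on the log2 scale). HSP90β-KO stood below EV by 0.25, against a log2 ratio of -0.11 from the sums. PUHr stood below parental by 0.03, and the libraries of these groups overlapped.

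**Figure D5:**
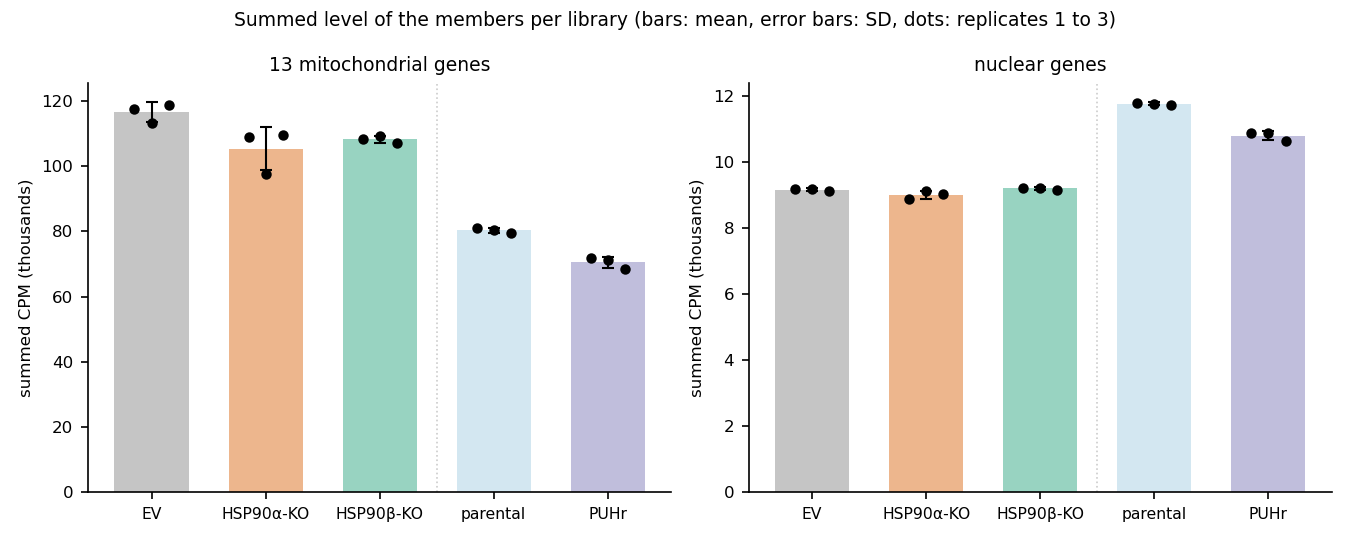
Summed CPM (vertical axes, from 0, scaled as their labels say) of the 13 mitochondrial members (left) and of the nuclear members (right) in each group, with bars for means, error bars for SD and dots for the 3 libraries; the tables on either side of the dotted line were normalized separately. Mitochondrial sums differed from EV by -9.54% in HSP90α-KO and -7.15% in HSP90β-KO and from parental by -12.3% in PUHr, while nuclear sums differed by -1.60%, 0.452% and -8.17%. Without HSP90α-KO replicate 2 the mitochondrial sum of HSP90α-KO differed from EV by -6.21%.

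Calls were counted by the letters in the promoters, beside 25.6% higher and 25.8% lower over all genes tested in PUHr, 27.5% and 26.6% in HSP90α-KO, and 17.2% and 17.2% in HSP90β-KO. In PUHr, of the 32 members with a match to NRF1, ETS or YY1 letters 4 rose and 14 fell, and of the 33 members without a match 3 rose and 15 fell. In HSP90α-KO 7 rose and 13 fell with a match, and 5 rose and 11 fell without. In HSP90β-KO 3 rose and 4 fell with a match and 7 rose and 4 fell without, and none of the 11 members with the YY1 letters passed. Of the 4 members with the NRF1 letters (NDUFB4, NDUFA8, SDHD and ATP5F1C), 3 fell and SDHD rose in HSP90α-KO. For these 4 the counts were 1 higher and 0 lower in HSP90β-KO, and 1 and 2 in PUHr. With the YY1 letters 4 rose and 3 fell in HSP90α-KO, and 1 rose and 5 fell in PUHr. With the ETS letters (20 members) 4 rose and 8 fell in HSP90α-KO, 2 and 4 in HSP90β-KO, and 2 and 10 in PUHr. No test was run on these counts.

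Other genes of the pathway were read from fixed lists. Their counts stand beside shares over all genes tested of 27.5% higher and 26.6% lower in HSP90α-KO, 17.2% and 17.2% in HSP90β-KO, and 25.6% and 25.8% in PUHr. Under the 4 other scalings run (quantile normalization, median centring and library sizes from nuclear genes or all reads) these shares ran from 21.7% to 27.5% higher and 26.5% to 33.8% lower in HSP90α-KO, from 12.5% to 21.0% and 15.1% to 21.6% in HSP90β-KO, and from 21.3% to 32.4% and 19.9% to 31.5% in PUHr. The ranges given for each list are over the same 4 scalings.

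Proteins that serve the respiratory complexes without belonging to them included 47 tested assembly factors, of which 7 rose and 13 fell in HSP90α-KO, 8 rose and 3 fell in HSP90β-KO, and 4 rose and 20 fell in PUHr. The ranges were 4 to 7 higher and 13 to 20 lower in HSP90α-KO, 2 to 14 and 3 to 5 in HSP90β-KO, and 2 to 7 and 16 to 28 in PUHr. In HSP90β-KO more were lower than higher with median centring (2 and 5). In HSP90α-KO COX17, which delivers copper to complex IV, fell by 0.48 and COX15, a heme synthesis enzyme for complex IV, rose by 0.51 with neighbours at 0.56. In HSP90β-KO COA5 and BCS1L, both on chromosome 2, fell by 0.63 and 0.50. In PUHr NDUFAF3 fell by 0.56 and NDUFAF1 by 0.43, both complex I assembly factors.

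Of 19 other electron transport genes tested, 6 rose and 8 fell in HSP90α-KO, 6 rose and 1 fell in HSP90β-KO, and 3 rose and 9 fell in PUHr. The ranges were 5 to 6 higher and 8 to 9 lower, 5 to 7 and 1 to 2, and 0 to 3 and 8 to 11 in the same order. SLC25A5, an exchanger of ADP for ATP encoded on the X chromosome, fell by 0.92 in HSP90α-KO (253 against 477 CPM, neighbours at -0.47) and by 0.39 in PUHr (396 against 519 CPM, neighbours at -0.27). GPD2, the glycerophosphate dehydrogenase that feeds electrons into the chain from the cytosolic side, stood at 17.4 CPM in EV and at 0.134 CPM in HSP90β-KO, near the level of no reads. Its chromosome 2 neighbours had a median of -0.01.

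Of 76 mitochondrial ribosomal protein genes, 26 rose and 12 fell in HSP90α-KO, 19 rose and 8 fell in HSP90β-KO, and 6 rose and 43 fell in PUHr, with a PUHr median of -0.12. The ranges were 13 to 26 higher and 12 to 19 lower in HSP90α-KO, 10 to 22 and 7 to 11 in HSP90β-KO, and 5 to 11 and 23 to 47 in PUHr. More were lower than higher in HSP90α-KO with library sizes from nuclear genes (13 and 19) and in HSP90β-KO with median centring (10 and 11). MRPL16 rose by 1.37 in HSP90α-KO (189 against 73.1 CPM). Of 26 genes for upkeep and transcription of mitochondrial DNA, 6 rose and 4 fell in HSP90α-KO, 7 rose and 4 fell in HSP90β-KO, and 0 rose and 17 fell in PUHr. The ranges were 3 to 6 higher and 4 to 10 lower in HSP90α-KO, 5 to 9 and 4 to 7 in HSP90β-KO, and 0 to 2 and 11 to 21 in PUHr. More were lower than higher in HSP90α-KO with quantile normalization (3 and 6), nuclear library sizes (3 and 10) and all reads (3 and 8), and in HSP90β-KO with median centring (5 and 7). TFAM, which packs mitochondrial DNA and starts its transcription, rose by 0.34 in HSP90α-KO (147 against 116 CPM), and TFB1M fell by 0.44 in PUHr.

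Of 19 citric acid cycle genes, 9 rose and 5 fell in HSP90α-KO, 5 rose and 3 fell in HSP90β-KO, and 0 rose and 13 fell in PUHr. The ranges were 5 to 8 higher and 5 to 6 lower in HSP90α-KO, 1 to 6 and 2 to 5 in HSP90β-KO, and 0 to 2 and 7 to 13 in PUHr. More were lower than higher in HSP90α-KO with quantile normalization (5 and 6) and in HSP90β-KO with median centring (1 and 5). IDH2, the mitochondrial NADP-dependent isocitrate dehydrogenase, fell by 2.49 in PUHr (11.8 against 66.6 CPM) and rose by 0.67 in HSP90α-KO (233 against 146 CPM). In HSP90α-KO IDH3G, on the X chromosome, and PC fell by 1.15 and 1.02, with neighbours at -0.93 and 0.04. Of 13 mitochondrial chaperones and proteases, 9 rose and 0 fell in HSP90α-KO, 2 rose and 4 fell in HSP90β-KO, and 1 rose and 7 fell in PUHr. The ranges were 3 to 9 higher and 0 to 1 lower in HSP90α-KO, 1 to 5 and 3 to 4 in HSP90β-KO, and 1 to 3 and 5 to 7 in PUHr. In HSP90β-KO more were higher than lower with quantile normalization (4 and 3) and with library sizes from nuclear genes or all reads (5 and 3 in each). HSPD1, the mitochondrial chaperonin encoded on chromosome 2, fell by 0.54 in HSP90β-KO with neighbours at -0.56. Of 11 regulators of mitochondrial biogenesis, 4 rose and 4 fell in HSP90α-KO, 1 rose and 2 fell in HSP90β-KO, and 3 rose and 2 fell in PUHr. The ranges were 4 higher and 3 to 5 lower in HSP90α-KO, 1 to 5 and 1 to 2 in HSP90β-KO, and 3 to 5 and 2 in PUHr. In HSP90β-KO more were higher than lower with library sizes from nuclear genes (3 and 1) or all reads (5 and 1), and in HSP90α-KO the balance went from 4 higher and 3 lower (quantile normalization, median centring) to 4 and 5 (nuclear genes).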

How the data were processed

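RNA was captured as mRNA, made into stranded libraries and sequenced as single reads. Per the study's methods and the submitters' processing notes, the authors trimmed the reads, aligned them with STAR to hg38, counted them with featureCounts and normalized each of 2 tables with edgeR. How reads in shared exons were counted is not given in the sources used here. The deposited values are log2 CPM with a small prior count, 15 libraries in all. Whole reads could be recovered from every value to within 0.00139 of a whole number and gave the depths and CPM printed. The 30 and 114 entries without an identifier were left out (at most 0.036% of reads).

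Each table was fitted alone with limma 3.58.1 (R 4.3.3, intensity trend) over genes that reached a log2 CPM of -1 in 3 libraries or more (17039 and 16503 genes), with Benjamini-Hochberg adjustment. The fit had no replicate block, and libraries of the same number did not deviate together. The test was checked on simulated data. Values for 20 genes on either side came from GENCODE 44 positions. Named members were the 6 largest rises and 6 largest falls that passed in each comparison (mean log2 CPM of at least 1), any member past a log2 fold change of 1, all mitochondrial members, 11 core subunits, and, from other lists, up to 2 genes in each direction. Members beyond these, named for a family, a shared chromosome or a promoter match, were chosen after their values were seen. The members, lists and tests were chosen with earlier results of these data known. Alternatives were other filters, pseudocounts, scalings, variance models, a replicate block, voom on the recovered reads and leaving out each library.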

Additional observations from a re-analysis of the deposited data

How the results depend on the processing

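In HSP90α-KO against EV 8 members rose with quantile normalization, 7 with library sizes from nuclear genes (57 fell) and 8 with library sizes from all reads. The nuclear median was -0.10, -0.13 and -0.10 in these, and the mitochondrial median -0.067 with quantile normalization. Without an intensity trend 23 fell (24.1% of all genes). In HSP90β-KO 10 fell with quantile normalization (mitochondrial median 0) and 7 rose with median centring (mitochondrial median -0.15), which turned the nuclear median to -0.029 beside -0.041 over all genes. That median was 0.024 and 0.038 with nuclear and all-read library sizes. Between the knockouts 13 were higher with quantile normalization (27.9% of all genes) and 56 lower with nuclear library sizes (37.3%). The nuclear medians were -0.10, -0.025, -0.14 and -0.13 with quantile normalization, centring, nuclear and all-read library sizes, and the mitochondrial median was -0.15 with nuclear library sizes. In PUHr 5 rose with median centring, 13 with nuclear and 13 with all-read library sizes, and 4 without an intensity trend (22.4% of all genes). In PUHr the nuclear medians were -0.075, -0.14, -0.048 and -0.037 and the mitochondrial medians 0, -0.22, -0.13 and -0.12 with quantile normalization, centring, nuclear and all-read library sizes. With medians over genes in place of sums the log2 difference of mitochondrial less nuclear members was 0.0098 in HSP90α-KO, turning its sign, -0.25 in HSP90β-KO, 0.26 between the knockouts and -0.025 in PUHr. Filters, pseudocounts and voom left every count and median of the members given here within 1.5 times or the spread between replicates. With no filter on low values the PUHr shares over all genes were 12.9% higher and 13.2% lower (33996 genes tested).

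Single members turned sign with quantile normalization: COX4I1 (-0.074), MT-CO3 (0.10) and MT-ND6 (-0.067) in HSP90α-KO, MT-CO2 (0.10) and MT-CO3 (0.067) in HSP90β-KO, COX4I1 (-0.11) and MT-ND3 (-0.14) between the knockouts, and ATP5F1B (0.082), MT-ND2 (0.064), MT-ND3 (0.042), MT-ND4L (0.067) and MT-ND6 (0.15) in PUHr. MT-ND5 turned sign there as well, in HSP90α-KO and in PUHr. Between the knockouts COX4I1 also turned with nuclear library sizes (-0.075). Less the median of chromosome neighbours, an alternative chosen after seeing the data, the sign turned for ATP5MK (-0.11) and NDUFB8 (-0.15) in HSP90α-KO, for ATP5MJ (-0.029), NDUFA10 (0.12), NDUFB3 (0.14) and NDUFS1 (0.14) in HSP90β-KO, for ATP5MK (-0.25), COX5B (-0.13), NDUFB3 (-0.37) and UQCRFS1 (-0.028) between the knockouts, and for ATP5ME (-0.046), NDUFA3 (0.016) and NDUFS1 (0.045) in PUHr. Library sizes from all reads were also chosen after seeing the data. For changes without a stated mechanism the cause was not tested.

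Leaving out 1 library at a time, 13 to 15 members rose and 30 to 34 fell in HSP90α-KO (nuclear median -0.087 to -0.047, mitochondrial -0.19 to -0.10), and 10 to 14 rose and 14 to 17 fell in HSP90β-KO (0.0024 to 0.031 and -0.13 to -0.09). Between the knockouts 18 to 22 were higher and 33 to 39 lower (-0.08 to -0.05 and -0.10 to -0.01). In PUHr 5 to 9 rose and 47 to 56 fell (-0.10 to -0.08 and -0.19 to -0.15), with 5 rises without parental replicate 2 or 3.

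Libraries of the same number did not deviate together (r from -0.05 to 0.04), so they share only a number. With a replicate block 14 members rose and 33 fell in HSP90α-KO, 12 and 15 in HSP90β-KO, 19 and 36 between the knockouts, and 8 and 53 in PUHr. The shares over all genes with the block were 27.1% higher and 26.1% lower, 16.7% and 16.6%, 29.7% and 29.4%, and 25.8% and 26.0% in that order. Among named members the block removed the calls of CYC1 (limma adjusted p = 0.058) and NDUFV2 (0.0585) in HSP90α-KO and added those of ATP5F1A (0.0395), MT-ND5 (0.0339) and MT-ND6 (0.0318) in PUHr. At these depths low members such as NDUFA7, NDUFA13 and NDUFV2 carried the largest standard errors.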
